A study of Mus musculus with 19 samples.

Results

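The genes described here are 32 genes of Kupffer cells, the resident macrophages of the liver, and of macrophages in general. They were picked out by symbol, with no threshold on their values, and all 32 were found among the 24537 genes of the deposited table. They were measured by polyadenylated RNA sequencing of hepatocyte preparations, in which hepatocytes are the labelled cell type and these genes are markers of another. All animals were male wild-type C57BL/6J mice with no treatment named, 1 library per mouse, and their livers were perfused in 2 steps to release the cells. The young group held 10 mice labelled 5 months old and the old group 9 mice labelled 24 months old. From the dates in the labels the young mice were 140 or 163 days old and the old mice 719 or 742 days old, because there were 2 cull days, 23 days from each other. Both ages were culled on both days: 5 young with 5 old on the first, 5 young with 4 old on the second.

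Kupffer cells line the liver sinusoids, where they take up bacteria, aged red cells and debris from portal blood. The resident cells are seeded before birth and renew themselves, and in mice they are known by the lectin Clec4f, the phosphatidylserine receptor Timd4 and the complement receptor Vsig4. Monocytes carrying the chemokine receptors Ccr2 and Cx3cr1 can enter the liver and replace lost Kupffer cells, and macrophages that handle lipid and dying cells are known for the receptor Trem2 and the lysosomal glycoprotein Gpnmb. In bulk RNA of this kind, a lower or higher number of macrophages and a different amount of RNA per macrophage cannot be told apart.

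Counts over genes averaged 18575212 ± 679514 for the young (SD, n = 10) and 19549006 ± 620306 for the old (SD, n = 9). Levels of one gene across mice are given as CPM, the counts scaled to a common library size by the trimmed mean of M-values (TMM), and levels of different genes are compared as TPM, which also divides by transcript length and has the same sum in every library. A few libraries stood apart. Old mouse 1187 had a summed level of 6651 TPM over the 32 genes, whereas the other old mice had 152 to 1200 TPM and the young mice 191 to 839 TPM. Old mouse 1183 was the lowest old mouse for 32 of 32 genes and lay below every young mouse for 18 of them. Young mice 1184, 1186 and 1188 had 91400 to 97100 TPM over a list of 10 hepatocyte genes, against 134600 TPM or more in each of the other mice, and 1 of these 3 was the highest young mouse for 29 of the 32 genes. These mice were all of the first cull day, and counts of genes that rose are given below with and without them.

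Macrophage genes were higher in most old mice, with 1 mouse far above the rest. In 31 of the 32 genes at least 8 of the 9 old mice lay above the young median. How many of all genes did so was not counted, and the 32 genes are not independent of one another. The age test was edgeR's quasi-likelihood test on all genes, adjusted for cull day and corrected by the Benjamini-Hochberg method, and a gene was called when its adjusted p was below 0.05. The test covered 26 of the 32 genes; Cx3cr1, Ccr2, Trem2, Gpnmb, Itgax and Ms4a7 had too few counts for it. Of the 26, 23 rose with age and 0 fell, where 16.3% of all 12269 tested genes rose and 14.5% fell. None of the 26 was lower at an unadjusted p below 0.05 either, and DESeq2 and limma-voom also found 0 lower. The median log2 fold change, old over young, was 1.70 over the 26 genes and -0.003 over all genes tested. The genes that passed were Clec4f, Vsig4, Timd4, Cd5l, Marco, Adgre1, Csf1r, Cd68, Fcgr1, C1qa, C1qb, C1qc, Lyz2, Ctss, Cybb, Laptm5, Tyrobp, Fcer1g, Aif1, Spi1, Ly86, Folr2 and Lgmn.

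Without old mouse 1187 the direction was the same for most genes and the number of calls fell. Then 6 of 26 genes rose (Marco, Lyz2, Tyrobp, Fcer1g, Aif1 and Spi1), where 12.4% of all tested genes rose, and the median log2 fold change was 0.85. At an unadjusted p below 0.05 the number was 18 of 26, but the share of all genes at that level was not counted. Without young mice 1184, 1186 and 1188 as well, 25 of 26 rose (15.7% of all tested genes), with Cd163 as the exception. Because 1 of these 3 was the highest young mouse for 29 of the 32 genes, their removal itself favours a rise. The 25 is therefore no independent check. Leaving out those 3 young mice alone gave 21 of 26 (14.6%). Then Timd4, Fcgr1, Cybb and Fcer1g no longer passed (edgeR adjusted p = 0.0814, 0.0620, 0.0503 and 0.0507), Mpeg1 and Cd14 did, and the log2 fold change of Marco was 3.27. Without old mouse 1183 24 of 26 rose, the 23 and Mpeg1, where 2066 of all 12310 tested genes rose. The median log2 fold change of the 26 was then 1.84.

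**Figure D1:**
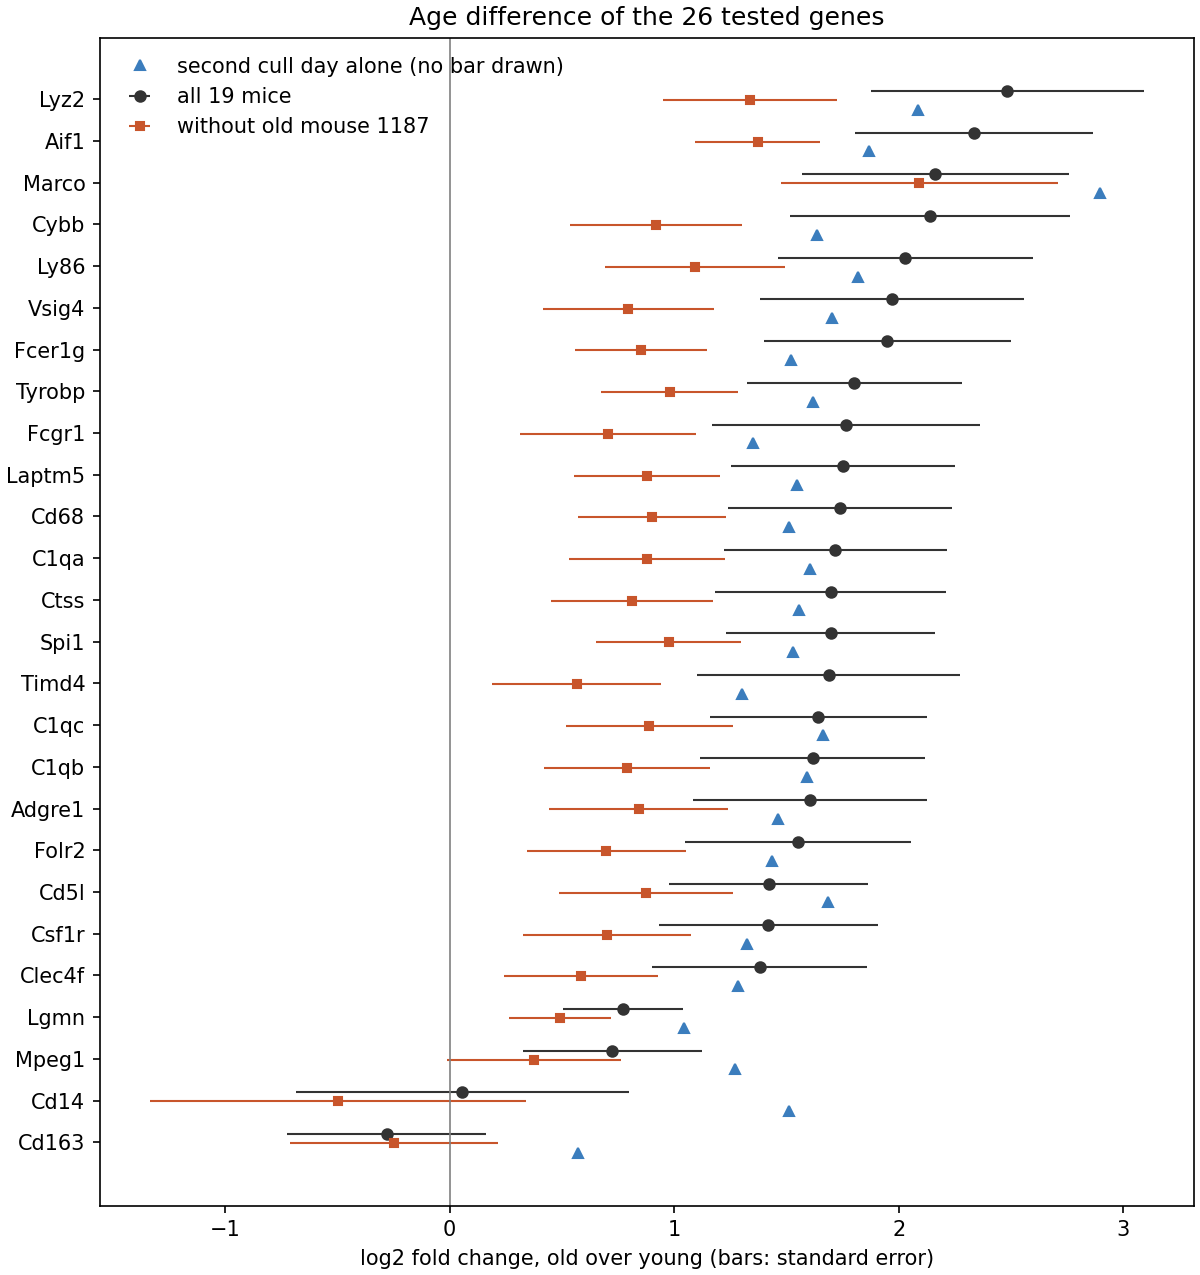
Log2 fold change, old over young, of the 26 tested genes, 1 row per gene. Circles are all 19 mice and squares the fit without old mouse 1187, each with its standard error as a bar, and triangles are the second cull day alone with no bar drawn. With all mice, 25 of the 26 circles lie to the right of 0, and Lyz2 lies farthest right at 2.48.

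The 3 markers of resident Kupffer cells were higher in 8 of 9 old mice than the young median. Clec4f (chromosome 6, 83644542 to 83656116 in mm10, minus strand) ran from 17.8 to 79.5 CPM in young mice with a median of 29.8, and from 9.46 to 441 CPM in old mice with a median of 56.0. Old mouse 1183 was the lowest of all 19 and old mouse 1187 the highest. The ages overlapped, because young mouse 1184 lay above every old mouse but 1187 and 1242. Clec4f rose by 1.38 ± 0.48 on the log2 scale (fold change ± SE, edgeR adjusted p = 0.0353), and the value without mouse 1187, 0.58 (adjusted p = 0.220), missed the threshold. The call was also lost when any 1 of 8 other mice was left out, with an adjusted p of 0.0513 to 0.0606.

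Vsig4 (chromosome X, 96247203 to 96293438, minus strand) binds complement fragments on blood-borne bacteria. It ran from 5.01 to 23.6 CPM in young mice with a median of 7.93, and from 3.22 to 30.4 CPM in old mice other than 1187, which had 265 CPM. Young mice 1184 and 1186 reached the level of the higher old mice. The log2 fold change was 1.97 ± 0.59 (SE; edgeR adjusted p = 0.0171) with all mice and 0.80 (SE 0.38, adjusted p = 0.130) without mouse 1187.

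Timd4 (chromosome 11, 46810799 to 46844333, plus strand) lets macrophages bind dying cells. It ran from 1.71 to 7.98 CPM in young mice with a median of 3.32, and from 1.04 to 13.3 CPM in old mice other than 1187, which had 83.3 CPM. It rose by 1.69 ± 0.59 (SE) on the log2 scale (edgeR adjusted p = 0.0355) with all mice, and the value was 0.57 (adjusted p = 0.280) without mouse 1187. The old median, 5.22 CPM, lay inside the young range. The call for Timd4 was also lost without any 1 of 6 other mice and in limma-voom with sample weights (log2 fold change 0.63, adjusted p = 0.249).

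The promoter sequences of Clec4f and Vsig4 are shown because these genes define the resident cells and moved together from mouse to mouse. Each is the RefSeq window in GRCm38.p6 (the mm10 build) from 250 bases before the gene's start to 50 bases after it, written 5′ to 3′ on the gene's strand. Clec4f is chr6:83656067-83656366 and Vsig4 is chrX:96293389-96293688, both on the minus strand. Capitals mark matches on either strand to 4 motifs. They are GAGGAA, the core bound by the macrophage factor PU.1, and TGCTGA, a half-site of the MAF family. The others are CACGTG, an E-box of the MITF and TFE family, and TGANTCA, the AP-1 site with any base allowed at N.
Clec4f: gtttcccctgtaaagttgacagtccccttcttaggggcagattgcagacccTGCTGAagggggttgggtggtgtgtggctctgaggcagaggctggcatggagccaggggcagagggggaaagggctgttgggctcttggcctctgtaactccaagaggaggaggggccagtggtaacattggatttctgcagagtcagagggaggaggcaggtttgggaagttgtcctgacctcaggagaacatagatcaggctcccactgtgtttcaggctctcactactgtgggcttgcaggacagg
Vsig4: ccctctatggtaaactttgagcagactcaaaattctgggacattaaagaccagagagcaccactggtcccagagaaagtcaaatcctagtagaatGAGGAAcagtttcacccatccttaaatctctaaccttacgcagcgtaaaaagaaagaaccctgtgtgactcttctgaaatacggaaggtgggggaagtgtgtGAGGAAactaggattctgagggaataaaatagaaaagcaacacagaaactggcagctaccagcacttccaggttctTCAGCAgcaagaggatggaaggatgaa
The Clec4f window held 1 MAF half-site and no PU.1 core in these letters. The Vsig4 window held 2 PU.1 cores and 1 MAF half-site.

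The markers of recruited and lipid-associated macrophages were present in few counts per library, and 3 counts served as the floor here. In young mice their counts were at or under 3 in 9 of 10 libraries for Cx3cr1, 6 for Ccr2, 7 for Trem2 and 10 for Gpnmb. In old mice the numbers were 2 of 9, 0, 1 and 1. These genes were compared as single values by an exact two-sided permutation of ages within cull days (31752 relabellings), on the difference of mean log2 CPM taken within each cull day and averaged over both days. The prior count of 2 understates the change of low genes.

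Gpnmb (chromosome 6, 49036518 to 49058182, plus strand), a glycoprotein of lysosomes in lipid-laden macrophages, separated the ages best of the 4. It had 0 to 2 counts in each young mouse and 2 to 30 in old mice, which is 0 to 0.111 CPM with a median of 0.0560 against 0.104 to 1.31 CPM with a median of 0.632. Old mouse 1183 lay within the young range and the other 8 old mice lay above every young mouse. Old minus young was 2.04 in log2 CPM (exact permutation p = 9.45e-05) and 1.89 without mouse 1187 (exact permutation p = 0.000189). Pooled over mice there were 122 counts in old and 12 in young, a ratio per depth of 10.4 (95% interval 5.75 to 20.7, exact binomial, counting error only), and 9.01 without mouse 1187. Mouse 1187 stood only 2.28 times above the median of the other old mice for Gpnmb.

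Trem2 (chromosome 17, 48346401 to 48352276, plus strand) is a lipid-sensing receptor that signals through the adaptor Tyrobp. It had 0 to 8 counts in young mice with a median of 0.0527 CPM. In old mice it had 2 to 19 counts, except for 753 counts in mouse 1187. That mouse had 32.9 CPM, 70.3 times the median of the other old mice. The log2 difference was 2.17 (exact permutation p = 0.00132), or 1.56 without mouse 1187 (p = 0.00315 in the same exact permutation test). The pooled ratio per depth was 40.5 with mouse 1187 and 4.37 without it (95% interval 2.67 to 7.44, counting error only).

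Ccr2 (chromosome 9, 124102183 to 124109140, plus strand) draws monocytes out of the marrow. It ran from 0 to 0.898 CPM in young mice with a median of 0.172, and from 0.208 to 1.51 CPM in old mice other than 1187, which had 6.37 CPM. Young mouse 1182 lay above 6 of the old mice. The log2 difference was 1.52 (exact permutation p = 0.00674), and 1.16 without mouse 1187 (exact permutation p = 0.0171). How reads with several matches were handled is not given in the sources used here.

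Cx3cr1 (chromosome 9, 120048683 to 120068296, minus strand), the fractalkine receptor, ran from 0 to 0.220 CPM in young mice with a median of 0.0560. In old mice it ran from 0 CPM in mouse 1183 to 2.10 CPM in mouse 1187 with a median of 0.483. Apart from mouse 1183, the old mice at the low end were 1238 and 1242, which overlapped the young. The log2 difference was 1.46 (exact permutation p = 0.00394), and 1.2 without mouse 1187 (exact permutation p = 0.00838).

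The other 2 low genes, the integrin Itgax and the membrane protein Ms4a7, gave log2 differences of 1.39 and 1.84 (exact permutation p = 0.00498 and 0.000220). When no minimum count was asked, edgeR called 29 of the 32 genes higher and 0 lower (13.3% of 17806 genes rose), the 6 low genes among them.

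**Figure D2:**
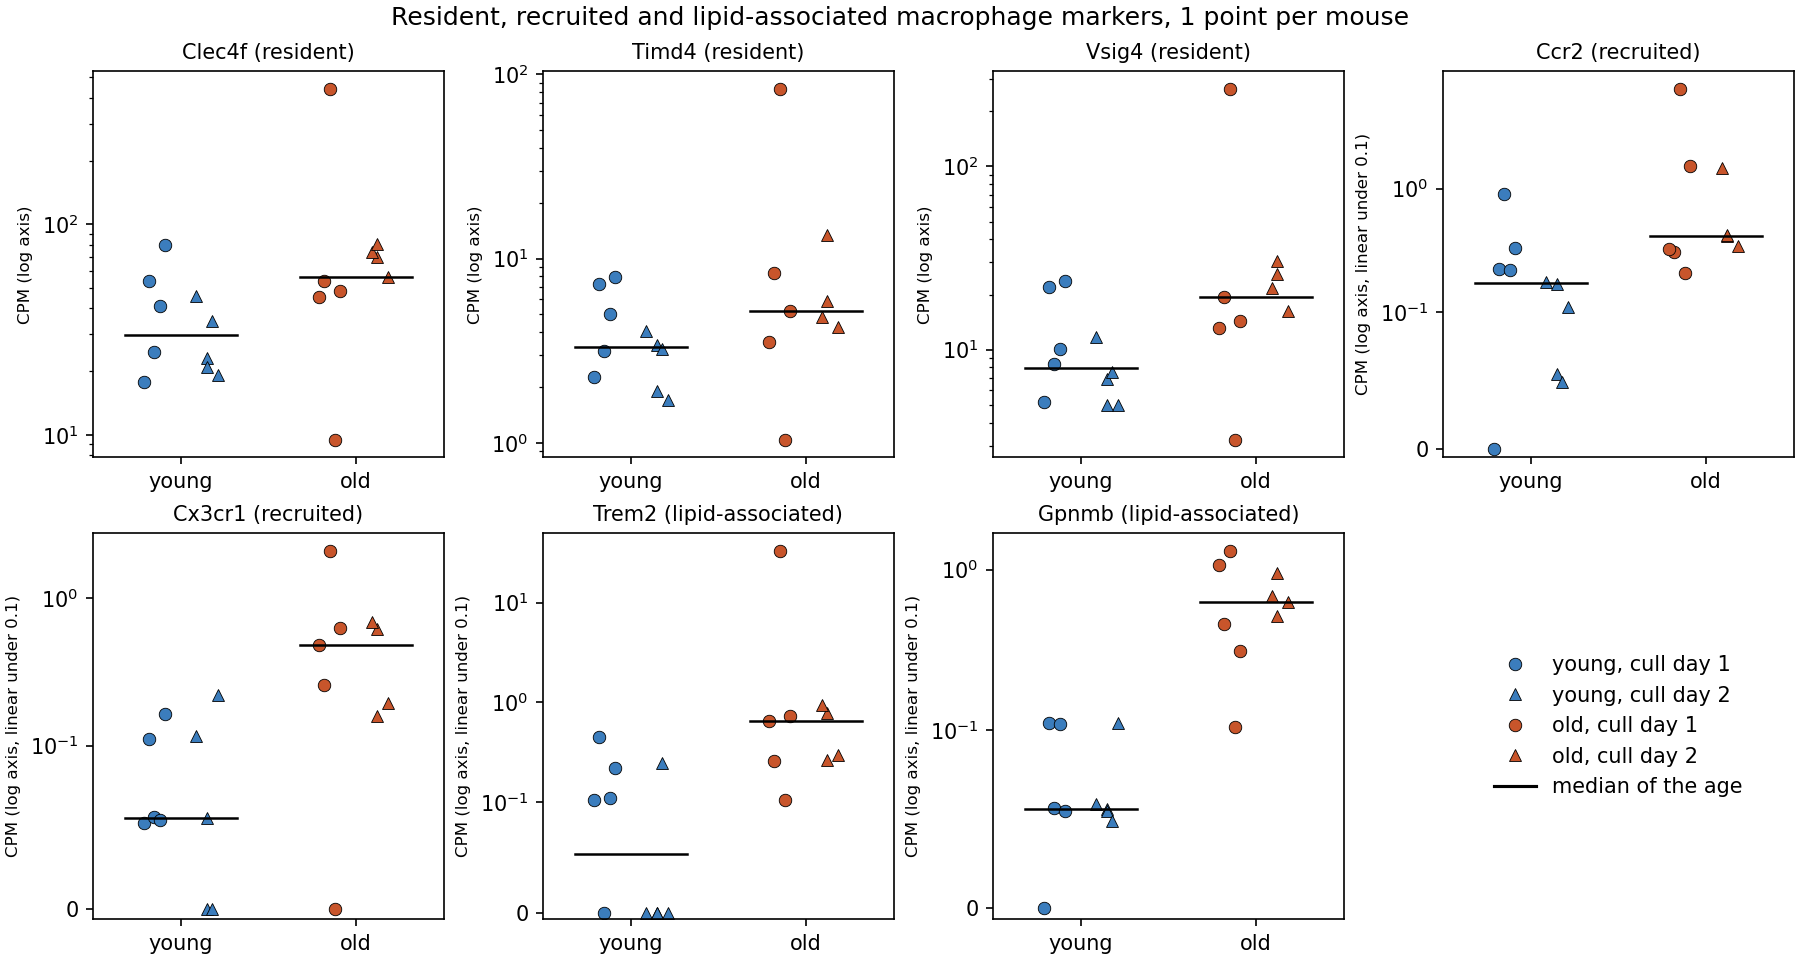
CPM of the 3 resident and 4 recruited or lipid-associated markers, 1 point per mouse, on log axes that turn linear under 0.1 for the 4 low genes. Circles are the first cull day, triangles the second, and lines the median of each age. Mouse 1187 is the top old point in each panel, at 441 CPM for Clec4f, and for Gpnmb 8 of 9 old mice lie above every young mouse.

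The Trem2 and Gpnmb promoters are shown as the counterparts from lipid-associated cells, with the same motifs in capitals. Trem2 is chr17:48346151-48346450 and Gpnmb is chr6:49036268-49036567, both on the plus strand.
Trem2: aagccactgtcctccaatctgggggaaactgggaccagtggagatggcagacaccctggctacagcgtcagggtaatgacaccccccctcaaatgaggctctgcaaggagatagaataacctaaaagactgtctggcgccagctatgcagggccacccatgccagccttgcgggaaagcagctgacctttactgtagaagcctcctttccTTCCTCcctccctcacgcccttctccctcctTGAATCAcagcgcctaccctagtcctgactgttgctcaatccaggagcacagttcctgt
Gpnmb: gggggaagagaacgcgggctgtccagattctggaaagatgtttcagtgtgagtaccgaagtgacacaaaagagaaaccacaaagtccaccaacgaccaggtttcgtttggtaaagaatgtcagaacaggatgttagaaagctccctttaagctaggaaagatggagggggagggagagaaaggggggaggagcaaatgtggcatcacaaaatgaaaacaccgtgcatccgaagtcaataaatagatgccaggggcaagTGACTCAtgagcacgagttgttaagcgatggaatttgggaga
The Trem2 window held 1 PU.1 core and 1 AP-1 site, and the Gpnmb window held 1 AP-1 site. At the open base N the Trem2 match has A and the Gpnmb match has C. Of the 32 genes 26 were matched to a RefSeq window, and those without one were Adgre1, Csf1r, C1qa, Tyrobp, Cd14 and Spi1. PU.1 cores were in 13 of the 26 windows (50% against 28.3% of all 32851 RefSeq windows of that length), MAF half-sites in 9 (34.6% against 19.5%) and AP-1 sites in 6 (23.1% against 7.81%). E-boxes were in 0 of the 26, against 7.15% of all windows. No match overlapped another motif, and these are matches of letters, not bound sites.

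Of the 6 scavenger and pattern receptors, 4 rose. Marco, a scavenger receptor for bacteria and particles, ran from 0.263 to 12.04 CPM in young mice with a median of 2.17, and from 3.43 to 67.5 CPM in old mice with a median of 12.5. All 9 old mice lay above the young median, and the highest was 1242 rather than 1187, which had 24.4 CPM. The log2 fold change of Marco was 2.16 ± 0.60 (SE; edgeR adjusted p = 0.0116) and 2.09 without mouse 1187 (adjusted p = 0.0197). Cd5l, a secreted scavenger protein of tissue macrophages, had the highest mean per-length level of these 6 at 42.5 TPM in young and 124 TPM in old mice, or 79.3 TPM without mouse 1187. It had a median of 37.7 CPM in young mice and 107 CPM in old mice. Cd5l rose by 1.42 ± 0.44 (SE) on the log2 scale (edgeR adjusted p = 0.0216), and its value without mouse 1187, 0.87, missed the threshold (adjusted p = 0.103).

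Cd68, a glycoprotein of macrophage lysosomes, rose by 1.74 and Folr2, a folate receptor of tissue macrophages, by 1.55 on the log2 scale. Without mouse 1187 the values were 0.90 and 0.70, and neither passed (edgeR adjusted p = 0.0522 and 0.154). Cd163 takes up haemoglobin bound to haptoglobin, and it did not pass the test. It ran from 4.37 to 35.0 CPM in young mice and from 0.416 to 15.5 CPM in old mice, with medians of 7.39 and 9.87. Mouse 1187, at 9.08 CPM, was near the middle of the old mice for this gene, and young mice 1184 and 1186 lay above every old mouse. For Cd163 the log2 fold change was -0.28 ± 0.44 (SE; edgeR adjusted p = 0.660). Cd14, the co-receptor for bacterial lipopolysaccharide, had young mouse 1186 at 28.9 CPM and a young median of 1.24 CPM. The log2 fold change was 0.06 ± 0.74 (SE; edgeR adjusted p = 0.962), and without young mice 1184, 1186 and 1188 it was 2.01 (adjusted p = 0.0328).

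The 3 chains of complement C1q, the starter of the classical complement pathway that macrophages secrete, rose together. Mean per-length levels in young mice were 25.9, 32.8 and 31.3 TPM for C1qa, C1qb and C1qc. In old mice they were 99.3, 115 and 111 TPM, and without mouse 1187 50.4, 59.9 and 61.1 TPM, so that C1qb was not the highest then. C1qa had the smallest p. C1qa ran from 6.43 to 33.7 CPM in young mice with a median of 12.6. In old mice it ran from 6.86 to 249 CPM with a median of 32.03, and 4 old mice lay above every young mouse. The log2 fold changes were 1.72, 1.62 and 1.64 for C1qa, C1qb and C1qc (edgeR adjusted p = 0.0147, 0.0209 and 0.0164). Without mouse 1187 they were 0.88, 0.79 and 0.89, and none passed (edgeR adjusted p = 0.0711, 0.124 and 0.0854).

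Of the 11 pan-macrophage and signalling genes 9 were tested and all 9 rose with all mice in the fit. Aif1, the actin-binding protein also called Iba1, gave the smallest p of the group. It ran from 0.881 to 2.08 CPM in young mice with a median of 1.31, and from 1.66 to 35.3 CPM in old mice with a median of 3.99. It was 1 of 6 genes in which all 9 old mice lay above the young median, and 6 of 9 lay above every young mouse. Its log2 fold change was 2.33 ± 0.53 (SE; edgeR adjusted p = 0.00374) and 1.37 without mouse 1187 (SE 0.28, adjusted p = 0.00197). Tyrobp, the adaptor that passes on signals of Trem2 and related receptors, had the highest mean per-length level of this group in old mice, 45.5 TPM, or 23.6 TPM without mouse 1187. In young mice its mean was 11.2 TPM, and Csf1r was higher at 12.5 TPM. Tyrobp rose by 1.80 ± 0.48 (SE) on the log2 scale (edgeR adjusted p = 0.00950) and by 0.98 without mouse 1187 (adjusted p = 0.0257).

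The related adaptor Fcer1g rose by 1.95 on the log2 scale, and the Fc receptor Fcgr1 by 1.76. The factor Spi1, which encodes PU.1, rose by 1.70, and the growth factor receptor Csf1r, on which macrophages depend for survival, rose by 1.42. Of these 4, Fcer1g and Spi1 passed without mouse 1187, at 0.85 and 0.98, and Fcgr1 and Csf1r did not, at 0.70 for both (edgeR adjusted p = 0.193 and 0.176). Adgre1, the F4/80 antigen, rose by 1.60, Laptm5, a lysosomal membrane protein of blood cells, by 1.75, and Ly86, the partner of an endotoxin-receptor homologue, by 2.03. Without mouse 1187 these 3 were at 0.84, 0.88 and 1.09 and none passed (edgeR adjusted p = 0.128, 0.0546 and 0.0535).

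Of the 5 lysosome and effector genes 4 rose. Lyz2, the lysozyme of macrophages, gave the smallest p. Its mean per-length level was the highest of the 5 in old mice, 251 TPM, or 95.9 TPM without mouse 1187. In young mice it was 35.7 TPM, and Mpeg1 was higher at 36.9 TPM. It ran from 10.01 to 48.1 CPM in young mice with a median of 17.3, and from 10.9 to 740 CPM in old mice with a median of 54.2. Only 5 of the 9 old mice lay above every young mouse. Its log2 fold change was 2.48 ± 0.61 (SE; edgeR adjusted p = 0.00599), or 1.34 without mouse 1187 (SE 0.39, adjusted p = 0.0183). Lyz2 has a close neighbour in sequence, Lyz1, so its counts are uncertain to a degree that was not tested. Lyz1 itself averaged 0.0271 CPM in young and 0.301 CPM in old mice. Cybb, the catalytic subunit of the phagocyte oxidase, rose by 2.14, the protease Ctss by 1.70 and the protease Lgmn by 0.77 on the log2 scale. Without mouse 1187 these 3 values were 0.92, 0.81 and 0.49 and none passed (edgeR adjusted p = 0.0843, 0.104 and 0.118), and the call for Lgmn was also lost without any 1 of 8 other mice.

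Mpeg1, which encodes the pore-forming perforin-2, did not pass (log2 fold change 0.73, SE 0.40, edgeR adjusted p = 0.172). Among young mice it ran from 53.1 to 216 CPM on the first cull day and from 28.8 to 59.2 CPM on the second. In old mice it ran from 24.7 to 445 CPM on the first cull day and from 77.2 to 129 CPM on the second.

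The ages were next set side by side within each cull day. On the second cull day 24 of the 26 genes had every old mouse above every young mouse (10.7% of tested genes did), with Cd163 and Cd14 as the exceptions. Clec4f was then at 56.0 to 80.9 CPM in the 4 old mice and 19.3 to 45.5 CPM in the 5 young mice. In edgeR fits of that day alone 25 of the 26 genes rose (12.2% of tested genes), with a median log2 fold change of 1.54, and Cd163 did not pass. On the first cull day, which held all 5 mice that stood apart, 0 of 26 passed (1.88% of tested genes rose). In edgeR 8 had an unadjusted p below 0.05, a count with no share of all genes beside it. The median log2 fold change was 1.80 with mouse 1187 among the old mice. Old and young medians of that day were 48.4 and 41.0 CPM for Clec4f and 14.3 and 10.1 CPM for Vsig4. For Timd4 they were 5.22 and 4.99 CPM. No gene had every old mouse above every young mouse on that day (3.89% of tested genes did), nor over both days together (0.994%, or 1.06% without mouse 1187).

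The age difference was not shown to differ between cull days. The edgeR test of the age by cull day term called 0 of 26 genes, 0% of all 12269, and 0 of the 26 had an unadjusted p below 0.05 (6.51% of tested genes did). DESeq2 called 0 of the 25 macrophage genes it tested as well, and 10 genes in all. Without mouse 1187 edgeR still called 0, and 16 of 26 had an unadjusted p below 0.05 (9.16% of tested genes). The largest differences between days were those of Cd14 and Cd163, by 2.56 and 1.60 on the log2 scale (edgeR unadjusted p = 0.0816 and 0.0648).

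Whether resident and recruited markers changed to different degrees was tested pair by pair, as the log2 ratio of each marker to Clec4f in the same mouse. Differences of ratios were likewise taken within each cull day and averaged over both days, so they need not equal the difference of the overall means. The ratio of Timd4 to Clec4f averaged -3.14 ± 0.27 in the young (SD, n = 10) and -3.19 ± 0.54 in the old (SD, n = 9), with a within-day difference of -0.07 (exact permutation p = 0.703, and 0.703 adjusted over the 6 pairs). The Vsig4 ratio differed by 0.30 (exact permutation, adjusted p = 0.0545), the Ccr2 ratio by 0.58 (adjusted p = 0.212) and the Cx3cr1 ratio by 0.52 (adjusted p = 0.212). None of these 4 passed the threshold of 0.05.

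The ratios of both lipid-associated markers were higher in old mice. Trem2 to Clec4f averaged -7.48 ± 0.73 in the young (SD, n = 10) and -6.18 ± 1.18 in the old (SD, n = 9), with a within-day difference of 1.23 (exact permutation, adjusted p = 0.0219). Gpnmb to Clec4f averaged -7.59 ± 0.68 and -6.49 ± 0.87, with a within-day difference of 1.10 (exact permutation, adjusted p = 0.0219). Without mouse 1187 the differences were 0.99 (adjusted p = 0.0420) and 1.32 (adjusted p = 0.00227) in the same exact permutation test. Both calls depended on the prior count added to these low counts. With 0.5 in place of 2 the differences were 2.21 and 1.87 and both passed (exact permutation, adjusted p = 0.00454 and 0.00132), and with 5 they were 0.63 and 0.47 and neither passed (exact permutation, adjusted p = 0.305 and 0.453). Without young mice 1184, 1186 and 1188 they were 1.16 and 0.85, and neither passed (exact permutation, adjusted p = 0.178 for both). In pooled counts, Gpnmb had 1.82 counts for every 1000 Clec4f counts in young mice, 6.54 in old mice and 10.8 in old mice other than 1187. The same 3 values were 3.19, 44.6 and 9.12 for Trem2, 2.28, 5.74 and 6.90 for Cx3cr1, and 6.07, 13.1 and 11.5 for Ccr2.

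**Figure D3:**
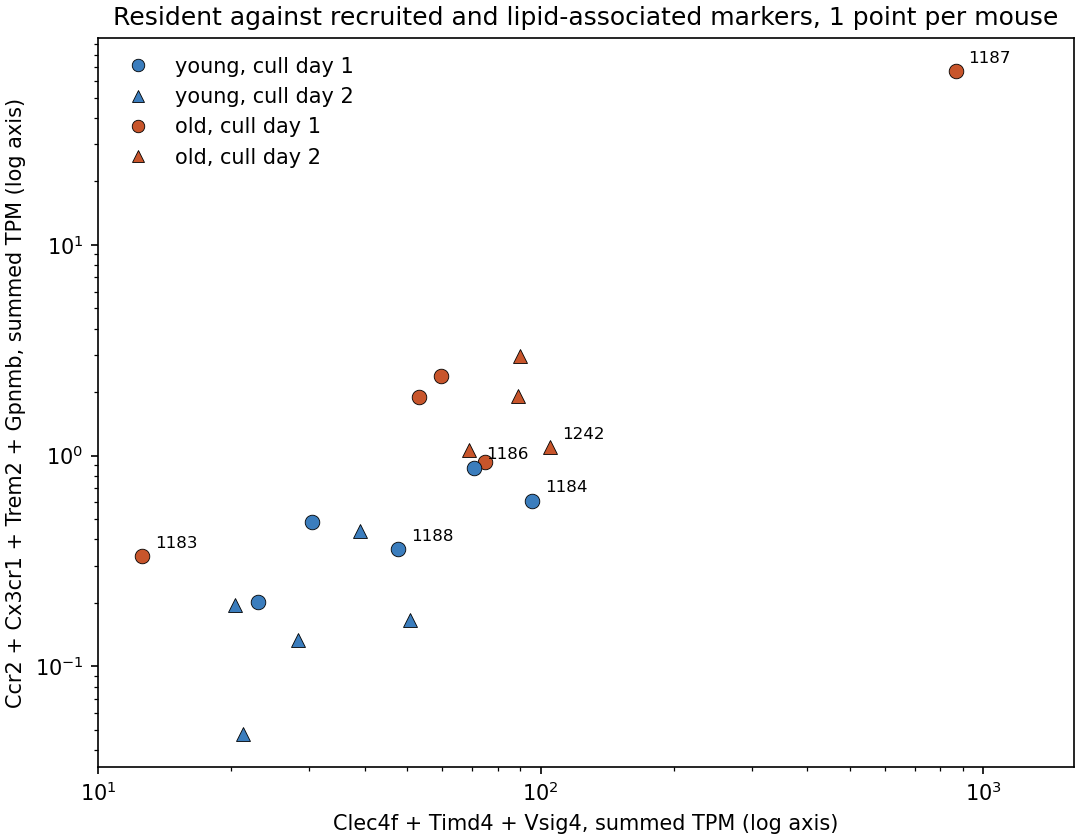
Summed TPM of the resident markers Clec4f, Timd4 and Vsig4 (horizontal) against that of Ccr2, Cx3cr1, Trem2 and Gpnmb (vertical), both on log axes, 1 point per mouse, coloured by age and shaped by cull day. Mouse 1187 stands alone at the upper right, at 868 and 66.9 TPM, and mouse 1183 is farthest left at 12.6 TPM.

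Mouse 1187 was not a scaled copy of the other old mice. It was more than 5 times above the median of the other old mice for 26 of the 32 genes. The excess was 26.9 times for Ms4a7, 17.8 for Cybb, 17.0 for Ccr2, 16.6 for Timd4, 15.8 for Lyz2 and 14.9 for Vsig4, and 8.02 times for Clec4f. Marco was 2.08 times and Cd163 0.883 times the median of the others. Relative to Clec4f, its Cd163 level had a log2 ratio of -5.59, where the other 18 mice had -4.20 to -1.18. Its Trem2 ratio was -3.74 against -8.76 to -5.52 in the others.

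**Figure D4:**
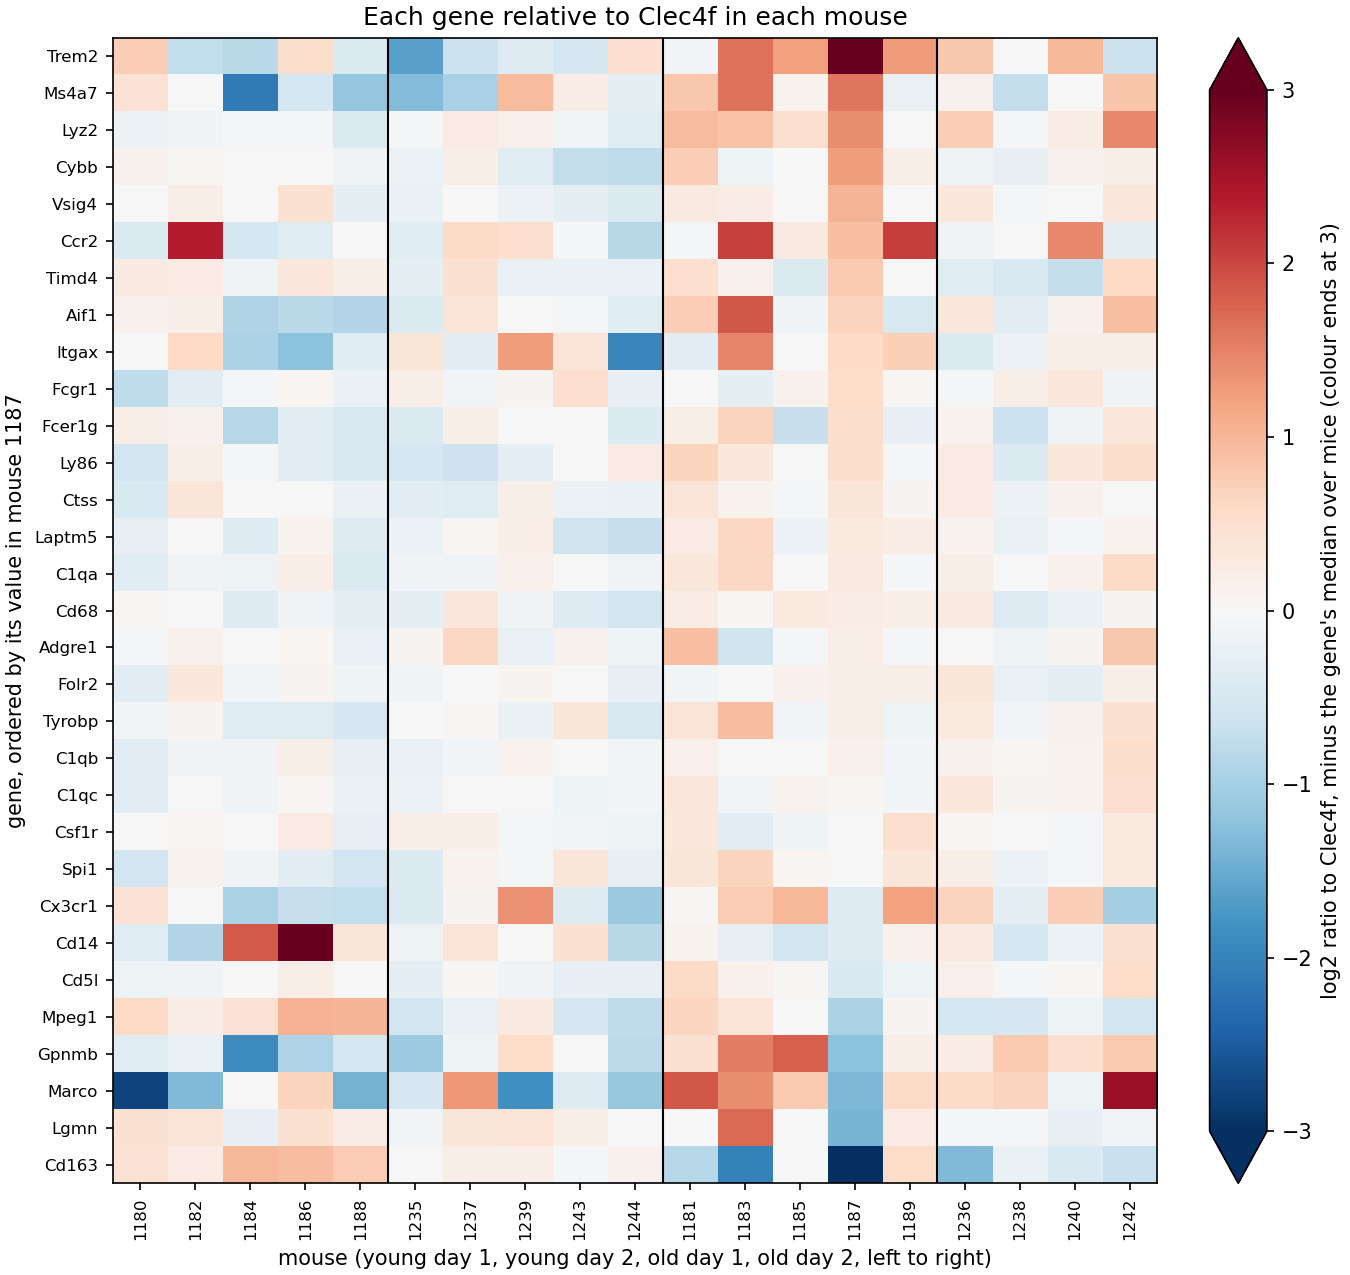
Log2 ratio of each gene to Clec4f in each mouse, minus the gene's median over mice, as colour from -3 (blue) to 3 (red), with genes ordered by their value in mouse 1187 and mice grouped by age and cull day. In mouse 1187 Trem2 is at the red end and Cd163 at the blue end, and the 3 C1q genes stay pale in all mice.

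Mouse 1187 also had the highest summed levels of the MHC class II, T and NK cell, B and plasma cell, neutrophil and dendritic cell lists. Its MHC class II list, whose products present peptides on antigen-presenting cells, summed to 3890 TPM against at most 232 TPM in other old and 117 TPM in young mice, and its T and NK cell list to 115 TPM against at most 6.42 TPM and 3.24 TPM. For B and plasma cells the sum was 25.8 TPM against at most 4.46 TPM and 2.51 TPM, with the B cell factor Pax5 at or under the floor in all libraries. The neutrophil list summed to 41.7 TPM against at most 17.8 TPM and 15.9 TPM, with Ly6g at or under the floor in all libraries. The part of these cells in the macrophage results was not tested.

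In the age test with all mice these lists held few tested genes apart from MHC class II, of which 7 of 7 rose. All 7 also rose without mouse 1187, with a median log2 fold change of 1.03 in place of 2.41. Cd74, the invariant chain, had the highest level (log2 fold change 2.46, edgeR adjusted p = 0.0154) and Ciita, the regulator of the class II genes, the smallest p (2.07, adjusted p = 0.00748), and without mouse 1187 they rose by 0.97 and 1.22. The single tested B and plasma cell gene, Jchain (2.14, edgeR adjusted p = 0.00583), and neutrophil gene, Csf3r (2.10, adjusted p = 0.00937), rose. Without mouse 1187 Jchain still passed and Csf3r did not (1.29, edgeR adjusted p = 0.0505). The T and NK cell gene Cd4 had a log2 fold change of 0.10 (adjusted p = 0.8997), and -0.79 without mouse 1187 (edgeR adjusted p = 0.0784). Ccl5, the highest of that list, and S100a8, the highest of the neutrophil list, had too few counts. Of 2 dendritic cell genes Clec9a rose (1.08, adjusted p = 0.0208) and Zbtb46 did not pass (0.19, adjusted p = 0.450). The cholangiocyte genes Sox9 (0.32, adjusted p = 0.410) and Spp1 (-0.34, adjusted p = 0.752) did not pass. Of 4 erythroid genes 3 rose and 1, Alas2, fell (-0.50, adjusted p = 0.000942), and of 10 hepatocyte genes 2 rose and 4 fell, with Alb at 0.47 (adjusted p = 0.0262) and Tat at -1.11 (adjusted p = 0.000324).

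Across mice the resident markers followed one another. Over the 19 libraries log2 CPM of Clec4f and Vsig4 had a Pearson r of 0.982 and a Spearman rho of 0.972 (permutation p = 1e-05 for both, the smallest that 100000 resamples can give, and 2.67e-05 adjusted over 8 relations). Without mice 1187 and 1183, the farthest from the median, r was 0.967, and within ages and within cull days it was 0.949 to 0.988. For Timd4 r was 0.951 and rho 0.911 (permutation p = 1e-05, adjusted 2.67e-05), and r was 0.868 without those 2 mice.

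The recruited and lipid-associated markers, at a few counts in most libraries, were set against Clec4f in the same way. With Trem2 r was 0.834 and rho 0.729 (permutation p = 7e-05 and 0.00061, adjusted 0.00014 and 0.000813), with Cx3cr1 0.783 and 0.698 (adjusted 0.000144 and 0.00121 by permutation), with Ccr2 0.734 and 0.747 (adjusted 0.001 and 0.00048) and with Gpnmb 0.685 and 0.658 (adjusted 0.000469 and 0.00251). Without the 2 farthest mice r was 0.721, 0.576, 0.567 and 0.651. Within the 10 young mice r was 0.620, 0.320, 0.387 and 0.334. Within the 9 old mice it was 0.854, 0.851, 0.777 and 0.818, and 0.623, 0.719, 0.431 and 0.802 without mouse 1187.

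On residuals from age by cull day means, which remove the age difference, 21 of the 25 other tested macrophage genes had an r of at least 0.9 with Clec4f, with a median of 0.969. Of all other tested genes 2.84% did. The exceptions were Marco (0.612), Cd163 (0.731), Cd14 (0.815) and Aif1 (0.845). The 10 genes outside the set most like Clec4f over the 19 libraries were Axl, Pld4, Slc11a1, Nfam1, Adgre5, Syk, Nckap1l, Sdc3, Itgal and Fcgr4, with r from 0.982 to 0.993. These values share the libraries, and some moved without mouse 1187. Then 18 of the 25 genes had an r of at least 0.9, with a median of 0.934, as did 1.02% of all other tested genes. Aif1 went to 0.581 and Cd163 to 0.927, and Timd4 (0.893), Lyz2 (0.883), Lgmn (0.884) and Fcer1g (0.834) came below 0.9.

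Further macrophage genes were read from lists. Of 17 other Kupffer cell genes 9 rose and 1 fell, with a median log2 fold change of 1.19. Without mouse 1187 6 rose and 2 fell, with a median of 0.46. The gene with the smallest p was Il18bp, which binds interleukin-18 (log2 fold change 1.28, edgeR adjusted p = 0.00287), and the one with the highest level was Id3, a regulator of Kupffer cell identity (0.68, adjusted p = 0.0221). Of 7 tested genes of lipid-associated macrophages 5 rose and 0 fell, with the same numbers without mouse 1187. They included the tetraspanin Cd9 (0.85, edgeR adjusted p = 8.2e-05). The highest-level gene, the protease Ctsd, did not pass (0.23, edgeR adjusted p = 0.0890), and neither did Spp1 (-0.34, adjusted p = 0.752). Of 15 phagocytic partner genes 13 rose, and 4 without mouse 1187. Fcgr2b, an inhibitory Fc receptor that endothelial cells of the sinusoids express too, had both the smallest p and the highest level (0.90, edgeR adjusted p = 0.00125). Both tested monocyte genes rose, Plac8 with a log2 fold change of 1.78 (edgeR adjusted p = 0.00743) and Itgam with 2.42 (adjusted p = 0.0288). Without mouse 1187 Plac8 passed at 1.00 and Itgam did not, at 0.63 (edgeR adjusted p = 0.0133 and 0.463).

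Genes listed as niche signals between Kupffer cells and their neighbours rose as well. Which cells made this RNA was not tested. Of the 10 listed, Csf2, Bmp10 and Cx3cl1 had too few counts for the age test. All 7 tested niche genes rose with and without mouse 1187 in edgeR, among them the Notch ligand Dll4 (log2 fold change 1.35, adjusted p = 0.00109) and the adhesion molecule Vcam1 (2.06, adjusted p = 0.0102, and 1.10 without mouse 1187). Markers of the neighbouring cells were also measured. Of 12 sinusoidal endothelial markers 8 rose, 7 without mouse 1187, with a median log2 fold change of 0.74 and summed levels of 100 to 186 TPM in young and 132 to 306 TPM in old mice other than 1187, which had 465 TPM. Their highest-level gene was Clec4g (0.72, edgeR adjusted p = 0.00227). Of 12 stellate cell markers 11 rose, 8 without mouse 1187, with a median of 1.45, summing to 38.4 to 99.7 TPM in young and 119 to 189 TPM in old mice other than 1187, which had 470 TPM. Lrat, the enzyme that esterifies vitamin A for storage, had the smallest p (1.52, edgeR adjusted p = 3.7e-05) and the matrix protein Dcn the highest level (1.62, adjusted p = 0.000204).

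Clec4f followed the endothelial gene Stab2 (r 0.871, rho 0.867, permutation p = 1e-05 for both) and Lrat (r 0.713, rho 0.770, permutation p = 0.00029 and 0.00021) across the 19 mice. Adjusted over the 8 relations these were 2.67e-05 for Stab2 and 0.000387 and 0.000420 for Lrat, and without mice 1187 and 1183 r was 0.842 and 0.840. The part of these neighbouring cells in the macrophage results was not tested.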

How the data were processed

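The authors deposited 1 table of estimated counts per gene for 19 libraries. Per the file headers it was written by HOMER's analyzeRepeats.pl on mm10, over exons, with transcripts condensed to genes and counts left raw. The submitters' processing notes name STAR and HOMER without versions. Aligner settings, the handling of reads with several matches and the strand setting of the counting are not given in the sources used here. RNA was extracted with Trizol and chloroform and libraries were stranded and paired-end, per the labels' protocols. The deposited estimated counts were multiples of 0.5, 29.2% of values were not whole, and they were rounded to whole counts before any test. The tests had been written for plain counts and were kept.

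Ages were compared over mice with edgeR 4.0.16 in R 4.3.3 (quasi-likelihood test, TMM scaling, cull day as covariate, filterByExpr with a minimum count of 10, Benjamini-Hochberg adjustment over all genes tested). Library totals over genes ran from 17381439 to 20287628, so that 3 counts, the floor used here, are 0.148 to 0.173 CPM before TMM scaling. Standard errors were derived from the F statistic and the fold change. TPM used the table's transcript lengths. Low genes and ratios were tested by exact permutation of ages within cull days, with log2 CPM at a prior count of 2 and the within-day differences averaged over both days. DESeq2 1.42.0 and limma-voom (limma 3.58.1) were alternatives, and Python 3.11.15 with scipy 1.17.1 did the remaining work. The edgeR and permutation steps were tested on simulated data. Coordinates and the promoter windows are on mm10, counted from 1. Of the 32 genes only the span of Csf1r overlaps another gene, Mir6983 on the same strand.

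The genes and the lists were chosen with earlier results of these data known. The text names in full the resident and recruited markers, the gene with the smallest p and the one with the highest per-length level over all mice in each other group and list, and the 10 genes most like Clec4f. Replicates are mice, per the labels. Leaving out mouse 1187 for the low genes was added after seeing the data.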

Additional observations from a re-analysis of the deposited data

Results flagged for a closer look

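In 5 of 52 groups tested (26 genes, each in young and in old mice) the highest or lowest mouse lay far from the rest, with its gap to the nearest mouse above Dixon's 95% critical value as a share of the group's range on the log2 scale. By chance about 1 in 20 groups would do so. Of the 5 cases 4 were old mouse 1187, at 265 CPM for Vsig4, 212 CPM for Cybb, 136.5 CPM for Laptm5 and 35.3 CPM for Aif1. The other was old mouse 1183, at 0.416 CPM for Cd163. The genes are not independent of one another, since they rise and fall together across mice, and no cause was tested.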

How the results depend on the processing

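No paired analysis was possible because young and old mice share no replicate numbers. The number of genes that rose was 23 of 26 with all mice; leaving out each mouse gave 6 to 24, where 6 is without mouse 1187 and every other mouse gave at least 18, and the first cull day alone gave 0. The number that fell was 0 under every alternative run. Over all genes, 3785 were called with all mice, 450 on the first cull day alone and 2389 on the second, with fewer mice in each. Of the 23 calls 6 held without each of the 19 mice, 11 were lost only without mouse 1187, and 6 (Adgre1, Clec4f, Csf1r, Fcgr1, Lgmn and Timd4) also without at least 1 other mouse. Limma-voom with sample weights called 21, not Adgre1 or Timd4, with a median log2 fold change of 1.10, and DESeq2 21 of the 24 to which it gave an adjusted p.

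Cd163 changed sign on the second cull day (0.57), without young mice 1184, 1186 and 1188 (0.54) and without these and 1187 (0.53). Cd14 changed sign without the cull day term (-0.39) and on the first cull day (-1.07), and leaving out each mouse gave -0.50 to 0.76. The Timd4 ratio to Clec4f was 0.014 on the first cull day, with the sign turned. The Trem2 and Gpnmb ratios passed with a prior count of 0.5 (2.21 and 1.87). The Trem2 ratio missed the threshold with a prior count of 5 (0.63), without the 3 young mice (1.16) and on the first (1.64) and second (0.83) cull day, and the Gpnmb ratio did so at 0.47, 0.85, 1.34 and 0.86. Where the number of mice did not fall, the cause was not tested. Depth limits the recruited markers, most of which had under 20 counts per library.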
